A study of Homo sapiens with 15 samples.

Results

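The set described here holds 31 genes of cholesterol and fatty acid synthesis and of their control, out of 59428 genes counted in the IMR90 libraries and 59412 in the Huh7 libraries. Members were chosen by gene symbol, with no measured value in the rule but with earlier results of these data known. Every member was found in both tables. They were ordered by role into 7 genes of the mevalonate and isoprenoid steps, 11 of the squalene and sterol steps, 6 regulators and transport genes, and 7 fatty acid genes. IMR90 is a line of human lung fibroblasts and Huh7 a line derived from a human hepatocyte carcinoma. All 9 IMR90 libraries came from cells given HRAS G12V, an oncogenic RAS, to induce senescence. Of these, 3 carried a non-targeting hairpin (control). Another 3 plus 3 carried hairpins against THBD, whose titles number them as set 1 and set 2. All 6 Huh7 libraries came from cells given palbociclib, an inhibitor of cell cycle kinases, to induce senescence. Of these, 3 were infected with the non-targeting control and 3 with shTHBD. THBD encodes thrombomodulin, a membrane receptor for thrombin, and the design asked whether it is needed to establish senescence. Each line is 1 cell line with 1 senescence trigger, which every group including the controls received. Whether each group became senescent was not checked here. Line, trigger and table cannot be told apart. No label names the replicates as separate cultures. The p-values therefore measure the spread between these libraries, which may be technical.

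Cells build cholesterol from acetyl-CoA through mevalonate, isoprenoid diphosphates, squalene and a series of sterols, and they build fatty acids from acetyl-CoA and malonyl-CoA. Both routes are switched on by the SREBP transcription factors, the products of SREBF1 and SREBF2, which stay in the endoplasmic reticulum until the escort protein SCAP carries them to the Golgi to be cut. INSIG1 and INSIG2 hold SCAP back when sterols are plentiful. SREBP1 is best known for fatty acid genes and SREBP2 for sterol genes, and in liver cells these routes supply the lipids of lipoproteins. Promoters of such genes often carry a sterol response element together with sites for NF-Y and Sp1.

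Promoter sequence was read from RefSeq (GRCh38.p14) in windows from 250 bases before to 50 after each gene's start, and 27 of the 31 members had an entry. ACAT2, FDFT1, SQLE and FASN had no entry. These 3 motifs were searched on both strands: TCACNCCAC for the sterol response element, CCAAT for NF-Y and GGGCGG for Sp1, with 0 matches of different motifs overlapping in the member windows. The letters TCACNCCAC lay in 1 of the 27 windows, that of SREBF2, and in 1.15% of all 27305 promoters searched. Other forms of the sterol response element were not searched, so a window without these letters may still hold one. CCAAT lay in 17 of 27 member windows against 35.7% of all promoters, and GGGCGG in 25 of 27 against 44.6%. By role, CCAAT was found in 8 of the 9 squalene and sterol windows, 4 of 6 mevalonate and isoprenoid windows, 3 of 6 regulator windows and 2 of 6 fatty acid windows. These counts rest on the RefSeq starts. That of IDI1 lay outside the counted gene, and those of ACLY, DHCR7, FADS1 and FADS2 lay far inside the outermost start of the counted gene. A match is a description of letters, and no binding was measured. Promoters are shown for members whose levels carry the results below, and for SREBF2, whose window held the letters TCACNCCAC. The former are INSIG1, higher in all 3 comparisons with a control, SCD, lower in all 3, and SCAP, which parted the IMR90 sets. MSMO1, which moved in opposite directions in those sets, is shown as well. Each line gives the 250 bases before the start, 5′ to 3′ on the gene's strand, with the CCAAT or sterol response element letters of either strand in capitals.
INSIG1, chr7:155297628-155297877, plus strand: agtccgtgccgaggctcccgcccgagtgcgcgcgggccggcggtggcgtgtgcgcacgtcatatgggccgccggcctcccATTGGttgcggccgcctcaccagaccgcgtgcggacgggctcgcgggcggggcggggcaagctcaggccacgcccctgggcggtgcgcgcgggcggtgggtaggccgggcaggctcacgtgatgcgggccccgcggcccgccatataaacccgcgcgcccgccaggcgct
SCAP, chr3:47475942-47476191, minus strand: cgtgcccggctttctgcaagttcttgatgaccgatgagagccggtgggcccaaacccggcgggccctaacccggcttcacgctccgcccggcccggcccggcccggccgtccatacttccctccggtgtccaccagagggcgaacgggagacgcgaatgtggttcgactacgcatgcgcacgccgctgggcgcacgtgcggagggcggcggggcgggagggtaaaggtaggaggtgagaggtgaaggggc
MSMO1, chr4:165327419-165327668, plus strand: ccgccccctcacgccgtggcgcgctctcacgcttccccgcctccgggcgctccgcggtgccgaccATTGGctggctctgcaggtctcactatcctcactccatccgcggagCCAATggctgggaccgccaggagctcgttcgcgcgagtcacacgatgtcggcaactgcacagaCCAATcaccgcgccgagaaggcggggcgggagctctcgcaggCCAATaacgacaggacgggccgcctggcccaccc
SCD, chr10:100346983-100347232, plus strand: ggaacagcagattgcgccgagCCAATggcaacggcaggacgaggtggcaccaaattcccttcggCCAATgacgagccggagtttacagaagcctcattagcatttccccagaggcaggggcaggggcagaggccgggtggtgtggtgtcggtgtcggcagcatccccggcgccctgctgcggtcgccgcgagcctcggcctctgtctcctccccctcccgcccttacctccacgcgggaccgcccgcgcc
SREBF2, chr22:41832855-41833104, plus strand: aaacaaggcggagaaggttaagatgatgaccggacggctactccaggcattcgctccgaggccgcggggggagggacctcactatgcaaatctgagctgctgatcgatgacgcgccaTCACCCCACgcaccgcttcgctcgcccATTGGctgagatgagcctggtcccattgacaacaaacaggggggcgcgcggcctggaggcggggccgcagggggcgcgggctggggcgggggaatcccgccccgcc
In these bases MSMO1 held 4 copies of CCAAT, counting both strands, SCD 2, and INSIG1 and SREBF2 1 each, while SCAP held none. Copies of GGGCGG numbered 5 in INSIG1, 3 in SCAP and 2 in each of MSMO1, SCD and SREBF2. The RefSeq start used for SCAP lay 1185 bases inside the outermost start of the counted gene, and those of the other shown genes lay within 102 bases of it.

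Libraries held 18256773 to 21509229 counted fragments in IMR90, 19328182 to 20020683 in the Huh7 controls and 22479132 to 25236178 in Huh7 shTHBD. THBD itself stood at 16.5, 18.8 and 19.99 CPM (counts scaled to a common library total) in the IMR90 controls, 10.5, 11.5 and 11.4 in set 2 and 39.4, 36.6 and 37.3 in libraries labelled set 1. It was 1.76-fold lower in set 2 (edgeR adjusted p = 1.5e-12) but 2.12-fold higher in libraries labelled set 1 (edgeR adjusted p = 1.2e-20), against their label, so every direction drawn from those libraries carries this mismatch. In Huh7 it could not be tested: the controls had 0, 0 and 6 counts and each shTHBD library 0, which allows up to 3 counts in each. All 8 hepatocyte markers exceeded 1 CPM in Huh7, against at most 1 of 8 in each IMR90 group. Their summed level in IMR90 was 0.279 to 0.482 CPM in the controls, 0.712 to 1.80 in libraries labelled set 1 and 3.27 to 4.23 in set 2. AFP made up most of each sum, with means of 0.31, 0.83 and 3.45 CPM in that order. It lay above every control in both sets. The other 7 overlapped with the controls, with AHSG and FGB at 0 throughout IMR90. All 9 fibroblast markers exceeded 1 CPM in IMR90, and their summed level was 3749 to 3778 CPM in the controls, 2253 to 2315 in libraries labelled set 1 and 9681 to 9773 in set 2. COL1A1 and COL1A2 made up most of these sums. Of the 9, set 2 had 6 above every control and 3 below (PDGFRA, PDGFRB and THY1), and libraries labelled set 1 had 2 above (PDGFRA and PDGFRB), 6 below and 1 overlapping. In Huh7, 6 of the 9 in controls and 7 of the 9 in shTHBD libraries exceeded 1 CPM, with summed levels of 783.9 to 812 and 1121 to 1177 CPM. Of the hepatocyte markers, 6 lay below every control in Huh7 shTHBD (means of 37.3 and 15.4 CPM in controls and shTHBD libraries for ALB, 241 and 156 for HNF4A) and 2, FGB and APOH, above, with summed levels of 4234 to 4441 CPM in controls and 3979 to 4127 in shTHBD libraries. The part of these marker shifts in the results was not tested. The description of set 2 replicate 3 names Huh7 while its other labels name IMR-90, and its summed hepatocyte marker level was 3.27 CPM.

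Most of the lipid synthesis genes were lower in shTHBD libraries than in controls, and the fatty acid genes were lower in every comparison with a control. Summed over all 31 members, the level was 4333 to 4356 CPM in the IMR90 controls, 3086 to 3102 in libraries labelled set 1 and 2870 to 2879 in set 2. In Huh7 it was 4737 to 4819 CPM in controls and 2484 to 2577 in shTHBD libraries. Neither sum overlapped between a shTHBD group and its control. A gene was called changed at an adjusted p under 0.05 in edgeR's quasi-likelihood test over all genes, and all 31 members passed the filter on low counts in each comparison. In libraries labelled set 1, 23 members were lower, 3 higher and 5 not called, against 26.5% of all 15411 tested genes lower and 27.3% higher. The member median of the log2 fold change there was -0.41, against -0.002 over all genes. In set 2, 20 were lower, 8 higher and 3 not called, against 34.1% of all genes lower and 33.2% higher, with a member median of -0.35 and 0.007 over all genes. In Huh7, 27 were lower, 2 higher and 2 not called, against 27.3% of 17474 genes lower and 25.9% higher, with a member median of -0.70 and 0.002 over all genes. In either direction, 53.8%, 67.3% and 53.1% of all genes were called in these comparisons, so a single call says little and the direction and size carry the description. In bulk RNA, fewer cells that express a gene and less of its RNA per cell cannot be told apart.

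**Figure D1:**
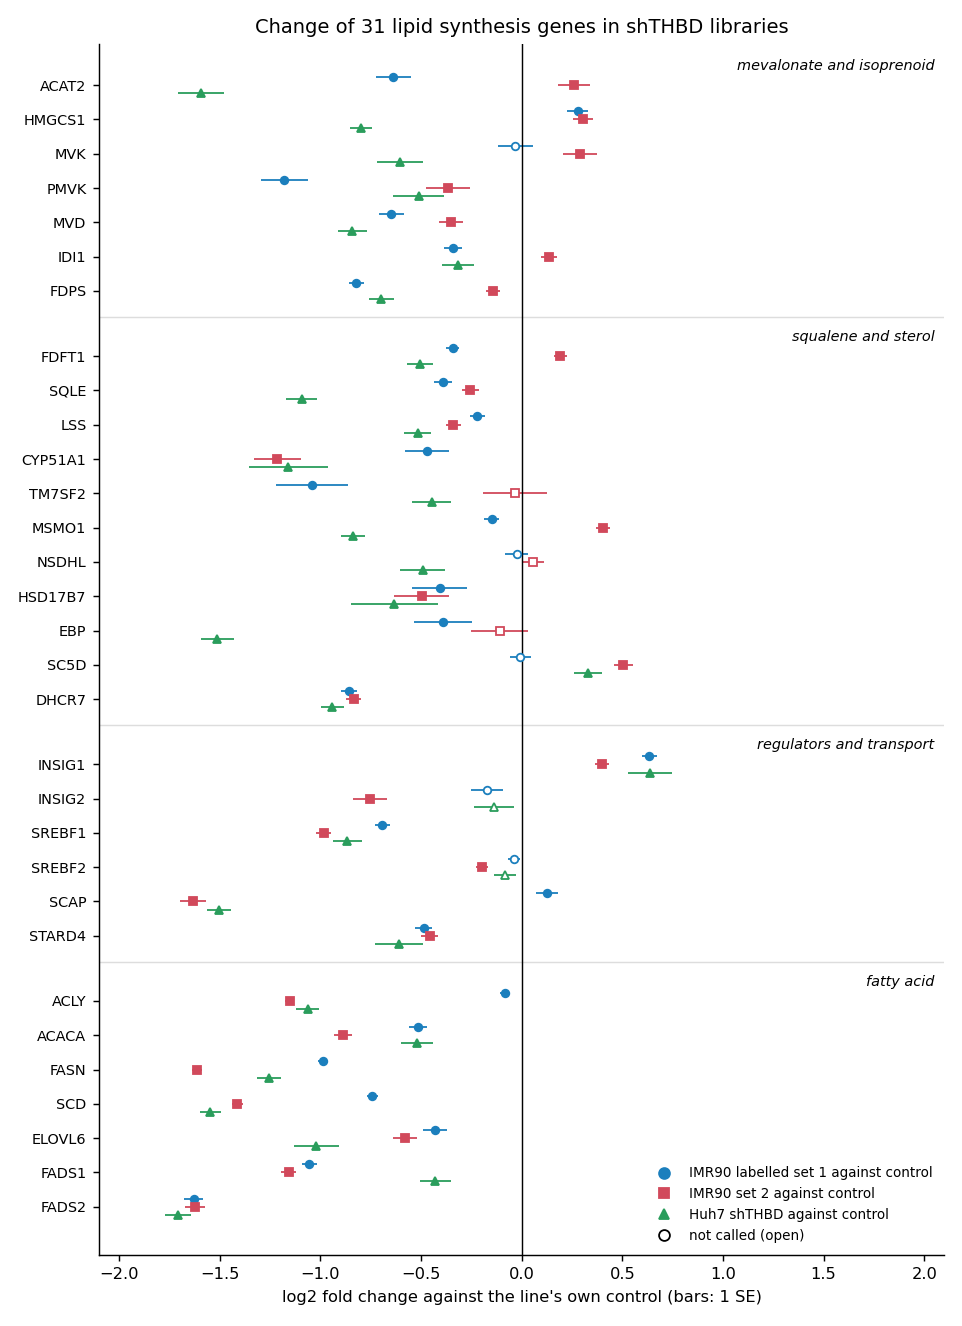
Log2 fold change of each of the 31 genes (horizontal axis) against the line's own control, by role, with bars of 1 SE; circles are libraries labelled set 1, squares set 2 and triangles Huh7, and open symbols were not called. The 7 fatty acid genes lie left of 0 in all 3 comparisons, INSIG1 lies right of 0 in all 3, and for ACAT2, IDI1, FDFT1 and MSMO1 set 2 lies right of 0 and the others left of it.

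The 2 IMR90 sets share their controls, so their values are given side by side, and calls are matched only between a set and Huh7. All 23 members lower in libraries labelled set 1 were also lower in Huh7, which is 85.2% of the 27 lower there. Of the 20 members lower in set 2, 18 (90%) were lower in Huh7, 66.7% of its 27: all 7 fatty acid genes, SREBF1, SCAP and STARD4, PMVK, MVD and FDPS of the mevalonate steps, and SQLE, LSS, CYP51A1, HSD17B7 and DHCR7 of the sterol steps. Since 27 of the 31 members were lower in Huh7, such overlaps were not tested. INSIG1 was higher in each comparison with a control. The groups did not overlap in CPM for 27 members between libraries labelled set 1 and the controls (25 below, 2 above), for 28 between set 2 and the controls (19 below, 9 above), and for 30 in Huh7 (28 below, 2 above). Of all tested genes, 59.4% did not overlap in the first of these (33.9% below, 25.4% above), 70% in the second (30.6% below, 39.4% above) and 58.8% in Huh7 (28.3% below, 30.4% above). CPM here is the count over the library total, while the fitted fold changes use TMM scaling factors of 0.954 to 0.957 in libraries labelled set 1 and 1.05 to 1.06 in set 2, so the ratio of 2 CPM values can differ from the fitted change by a few percent.

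**Figure D2:**
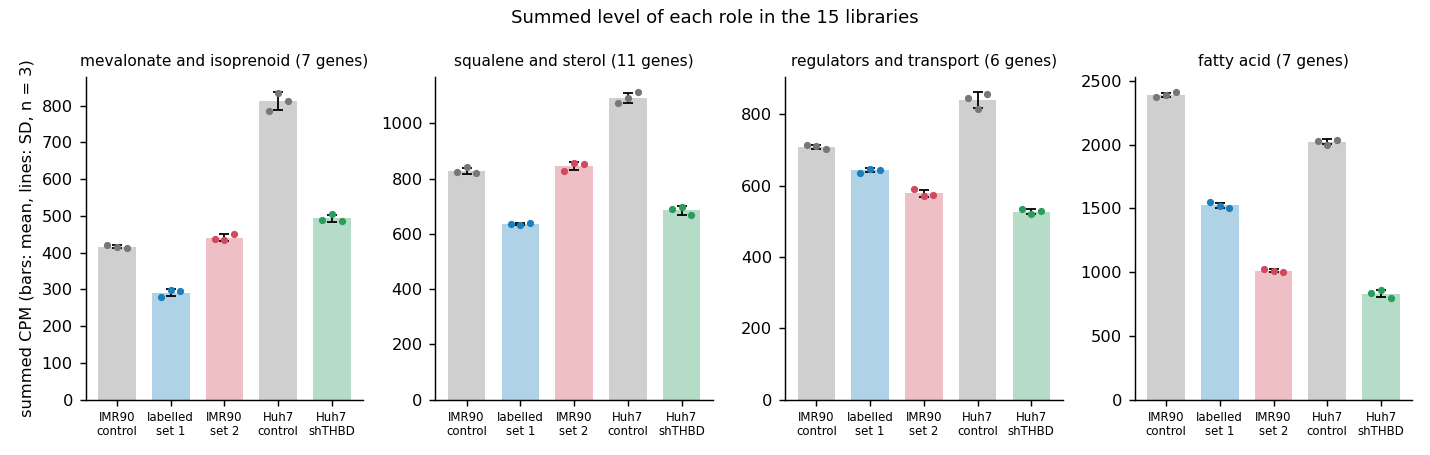
Summed CPM of the genes of each role (vertical axis, from 0) in the 15 libraries; bars are means, lines SD of 3 libraries and points single libraries. The fatty acid sum falls from 2391 to 1524 and 1011 CPM in IMR90 and from 2022 to 832 in Huh7. In CPM the mevalonate and sterol sums of set 2 lie at or above those of the IMR90 controls. These sums carry no TMM scaling, whose factors were 0.993 to 0.994 in IMR90 controls and 1.05 to 1.06 in set 2. Small differences between the sums thus depend on the scaling.

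The 7 fatty acid genes were all lower in each comparison with a control, with median log2 fold changes of -0.74 in libraries labelled set 1, -1.16 in set 2 and -1.06 in Huh7. FADS2, a desaturase at the entry to polyunsaturated fatty acid synthesis, had the largest fall of the members in libraries labelled set 1 and in Huh7. In IMR90 it stood at 121, 132 and 129 CPM in controls, 41.9, 37.0 and 40.2 in libraries labelled set 1 and 41.7, 45.3 and 44.5 in set 2. Huh7 levels of FADS2 were 159.6, 162 and 163 CPM in controls and 52.2, 53.3 and 45.6 in shTHBD libraries. Every shTHBD library was below every control of its line, at about 1 part in 3 of the control level. The fitted changes were -1.63 ± 0.048 (log2, ± SE), -1.62 ± 0.048 and -1.71 ± 0.066, a 3.1-fold, 3.08-fold and 3.27-fold fall (edgeR adjusted p = 7.8e-42, 1.4e-42 and 2e-20). FADS1, the next desaturase of that route and the head-to-head neighbour of FADS2 with which it shares 490 bases of exon on opposite strands, stood at 184, 176 and 172 CPM in IMR90 controls, 84.1, 81.3 and 80.8 in libraries labelled set 1 and 85.5, 85.0 and 82.0 in set 2. In Huh7 the levels were 60.6, 62.6 and 58.2 CPM in controls and 49.7, 44.7 and 43.0 in shTHBD libraries, again without overlap. Its log2 fall in Huh7 (-0.43 ± 0.077) was smaller than in libraries labelled set 1 (-1.06 ± 0.037) and in set 2 (-1.16 ± 0.037), and both differences passed the test (edgeR adjusted p = 2.4e-09 and 7.1e-11).

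FASN, the synthase that assembles palmitate, stood at 715, 719 and 718 CPM in IMR90 controls, 353, 341 and 351 in libraries labelled set 1 and 252, 244 and 248 in set 2. Its Huh7 levels were 444, 400.4 and 467 CPM in controls and 189, 196 and 175 in shTHBD libraries. Levels were tight within each IMR90 group and the groups lay far apart, with set 2 lowest. The log2 changes were -0.99 ± 0.024, -1.61 ± 0.025 and -1.25 ± 0.06 in the same order as above (edgeR adjusted p = 4.7e-47, 2.2e-60 and 3.3e-18). SCD, which puts the double bond into stearate and whose promoter is shown above, stood at 468, 473 and 481 CPM in IMR90 controls, 271, 278 and 269 in libraries labelled set 1 and 189.7, 188 and 188 in set 2. For SCD in Huh7, controls stood at 928, 937 and 915 CPM and shTHBD libraries at 324, 326 and 319. No library overlapped with the other group of its line, and the log2 changes were -0.74 ± 0.026, -1.41 ± 0.027 and -1.55 ± 0.052 (edgeR adjusted p = 1.4e-37, 1.4e-54 and 3.8e-22).

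ACLY, which releases cytosolic acetyl-CoA from citrate for both routes, stood at 746, 743 and 762 CPM in IMR90 controls, 695, 682 and 668 in libraries labelled set 1 and 365, 355 and 352 in set 2. The Huh7 levels were 357, 348 and 349 CPM in controls and 171, 183 and 161 in shTHBD libraries. Set 2 and Huh7 shTHBD thus lay near 1 part in 2 of their controls, while libraries labelled set 1 lay just below theirs. The log2 changes were -0.084 ± 0.022, -1.15 ± 0.023 and -1.06 ± 0.057 (edgeR adjusted p = 0.001, 8.8e-53 and 5.9e-17), and the change in libraries labelled set 1 differed from that in set 2 by 1.07 ± 0.023 and from that in Huh7 by 0.96 ± 0.053 (edgeR adjusted p = 9.3e-51 and 2.9e-18). ACACA, the carboxylase that makes malonyl-CoA, stood at 92.3, 97.7 and 97.0 CPM in IMR90 controls, 67.0, 65.0 and 61.5 in libraries labelled set 1 and 54.6, 56.0 and 53.7 in set 2. Huh7 levels of ACACA were 52.3, 55.0 and 54.3 CPM in controls and 37.3, 39.0 and 38.7 in shTHBD libraries. Its groups did not overlap either, with log2 changes of -0.51 ± 0.044, -0.89 ± 0.046 and -0.52 ± 0.079 (edgeR adjusted p = 1.7e-16, 2.8e-28 and 1.1e-06). ELOVL6, which lengthens palmitate, had log2 changes of -0.43 ± 0.059, -0.58 ± 0.059 and -1.02 ± 0.11. In the fatty acid genes set 2 was lower than libraries labelled set 1 in 6 of 7, all but FADS2 (log2 difference, labelled set 1 minus set 2, -0.006 ± 0.054, edgeR adjusted p = 0.93). The differences of FADS1 (0.10 ± 0.04, edgeR adjusted p = 0.021) and ELOVL6 (0.15 ± 0.062, edgeR adjusted p = 0.026) were small and were lost with upper-quartile scaling (0.002 and 0.052). The FADS1 difference was also lost without replicate 1 of libraries labelled set 1 (0.093) and without set 2 replicate 3 (0.084). The ELOVL6 difference was also lost without replicate 1 (0.147) or 3 (0.152) of libraries labelled set 1 and without set 2 replicate 1 (0.145).

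**Figure D3:**
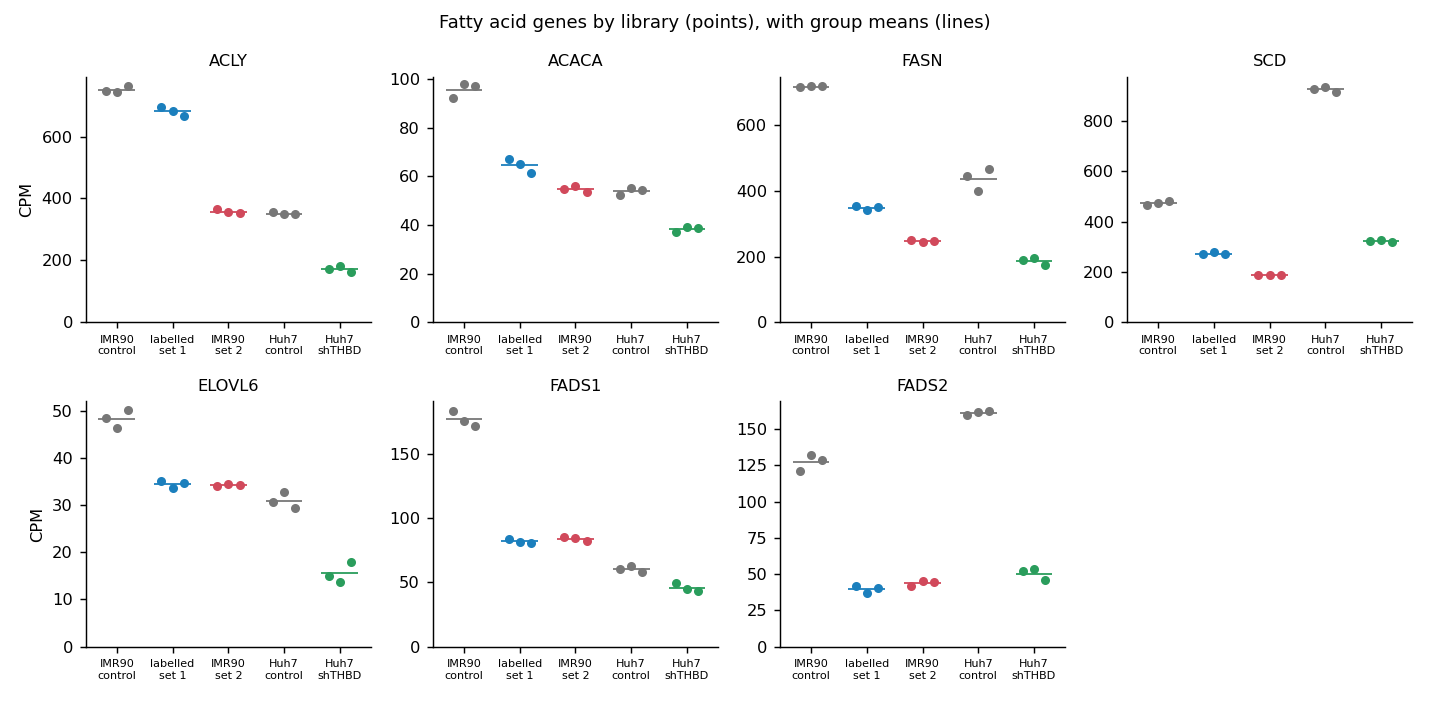
CPM of the 7 fatty acid genes (vertical axes, from 0) in each of the 15 libraries (points) with group means (lines). In every panel the shTHBD points lie below the controls of their line; for ACLY libraries labelled set 1 lie just below the controls, between 667.9 and 695 CPM against 743 to 762.

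The 7 genes of the mevalonate and isoprenoid steps were all lower in Huh7 (median log2 fold change -0.70), 5 lower and 1 higher in libraries labelled set 1 (median -0.64), and 3 lower and 4 higher in set 2 (median 0.14). ACAT2, the thiolase that joins acetyl-CoA units at the start of the route, stood at 20.1, 19.6 and 20.5 CPM in IMR90 controls, 12.9, 12.3 and 12.1 in libraries labelled set 1 and 25.5, 24.6 and 26.4 in set 2. For ACAT2 in Huh7, controls stood at 28.4, 31.02 and 30.9 CPM and shTHBD libraries at 9.17, 11.97 and 9.34. The libraries labelled set 1 were all below the controls and set 2 all above them. The log2 changes were -0.64 ± 0.087, 0.26 ± 0.079 and -1.59 ± 0.12 (edgeR adjusted p = 2.1e-09, 0.0029 and 1.4e-13). ACAT2 shares 17.2% of its exon length with TCP1 on the other strand, and 5.04% with SOD2, also on the other strand. The IMR90 header names no strand option, so in IMR90 fragments there are assigned to neither gene. The options for Huh7 are not given. TCP1 was higher in all 3 comparisons (log2 0.33, 0.24 and 0.43), and SOD2 had log2 changes of 0.087, -0.73 and -1.31. HMGCS1, the HMG-CoA synthase, stood at 56.4, 59.2 and 54.1 CPM in IMR90 controls, 60.1, 69.5 and 67.9 in libraries labelled set 1 and 72.8, 78.8 and 70.1 in set 2. Huh7 levels of HMGCS1 were 405, 436 and 398 CPM in controls and 246, 239 and 240.4 in shTHBD libraries. It was thus higher in both IMR90 sets and lower in Huh7, with log2 changes of 0.28 ± 0.052, 0.30 ± 0.051 and -0.80 ± 0.055 (edgeR adjusted p = 4.2e-06, 2.7e-07 and 4.3e-14). The IMR90 changes differed from the Huh7 change by 1.06 ± 0.075 in libraries labelled set 1 and 1.08 ± 0.075 in set 2 (edgeR adjusted p = 6.1e-15 and 5.6e-15). HMGCS1 shares 37.68% of its exon length with an annotated gene on the other strand. Under the options in the IMR90 header fragments there go to neither gene, so its IMR90 level is understated.

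PMVK, which adds the second phosphate to mevalonate, stood at 14.8, 13.2 and 12.7 CPM in IMR90 controls, 4.98, 5.95 and 6.26 in libraries labelled set 1 and 11.8, 11.1 and 10.4 in set 2. For PMVK in Huh7, controls stood at 15.9, 20.5 and 21.9 CPM and shTHBD libraries at 15.8, 14.2 and 11.7. The lowest levels were those of libraries labelled set 1, and no shTHBD library reached a control of its line. Its log2 changes were -1.18 ± 0.12, -0.37 ± 0.11 and -0.51 ± 0.13 (edgeR adjusted p = 8e-14, 0.0021 and 0.00094). FDPS, which makes farnesyl diphosphate, the branch point to sterols and prenylated proteins, stood at 166, 168 and 165 CPM in IMR90 controls, 87.3, 92.7 and 91.6 in libraries labelled set 1 and 156, 153 and 169 in set 2. Huh7 levels of FDPS were 126, 131 and 137 CPM in controls and 85.5, 86.0 and 76.3 in shTHBD libraries. Set 2 overlapped with the controls in CPM, and its fitted log2 change was -0.14 ± 0.035, against -0.82 ± 0.037 in libraries labelled set 1 and -0.70 ± 0.064 in Huh7 (edgeR adjusted p = 0.00021, 4.6e-31 and 4e-11). FDPS shares 18.64% of its exon length with RUSC1-AS1 on the other strand, whose own log2 changes were 0.031 in set 2, -0.54 in libraries labelled set 1 and -1.12 in Huh7. MVD, the decarboxylase that yields isopentenyl diphosphate, was lower in all 3 comparisons (-0.65 ± 0.061, -0.35 ± 0.059 and -0.84 ± 0.072). IDI1, the isomerase of that product, was lower in libraries labelled set 1 and Huh7 (-0.34 ± 0.043 and -0.32 ± 0.079) and slightly higher in set 2 (0.14 ± 0.041). IDI1 shares 14.97% of its exon length in IMR90 and 14.8% in Huh7 with IDI2-AS1 on the other strand. MVK, the mevalonate kinase, was higher in set 2 (0.29 ± 0.084), lower in Huh7 (-0.60 ± 0.11) and not called in libraries labelled set 1 (-0.032 ± 0.087, edgeR adjusted p = 0.78).

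Of the 11 squalene and sterol genes, 10 were lower and 1 higher in Huh7 (median log2 fold change -0.63), 9 were lower and none higher in libraries labelled set 1 (median -0.39), and 5 were lower and 3 higher in set 2 (median -0.11). MSMO1, a monooxygenase in the removal of sterol methyl groups, stood at 135, 135 and 127 CPM in IMR90 controls. It stood at 112, 117 and 115 CPM in libraries labelled set 1 and 175, 194 and 187 in set 2. For MSMO1 in Huh7, controls stood at 254, 275 and 249.7 CPM and shTHBD libraries at 147, 143 and 155. The 3 IMR90 groups did not overlap, with set 2 highest and libraries labelled set 1 lowest. The log2 changes were -0.15 ± 0.037, 0.40 ± 0.036 and -0.84 ± 0.061 (edgeR adjusted p = 0.00048, 1.9e-16 and 1.6e-13). SC5D, a late sterol desaturase, stood at 56.7, 58.7 and 52.7 CPM in IMR90 controls, 55.5, 51.5 and 53.9 in libraries labelled set 1 and 87.2, 84.2 and 80.9 in set 2. Huh7 levels of SC5D were 62.6, 65.6 and 60.6 CPM in controls and 83.2, 79.1 and 79.9 in shTHBD libraries. It was the sterol enzyme that rose in both set 2 and Huh7, with log2 changes of 0.51 ± 0.048 and 0.33 ± 0.07 (edgeR adjusted p = 3.9e-15 and 0.00015), while libraries labelled set 1 overlapped with the controls (-0.007 ± 0.05, edgeR adjusted p = 0.92). FDFT1, the squalene synthase, had the pattern of MSMO1 in IMR90, with log2 changes of -0.34 ± 0.033 in libraries labelled set 1 and 0.19 ± 0.032 in set 2, and was lower in Huh7 (-0.51 ± 0.064).

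CYP51A1, the lanosterol demethylase, stood at 13.2, 14.8 and 14.2 CPM in IMR90 controls, 9.20, 9.89 and 10.1 in libraries labelled set 1 and 6.48, 7.42 and 5.34 in set 2. For CYP51A1 in Huh7, controls stood at 7.57, 8.34 and 10.6 CPM and shTHBD libraries at 4.44, 4.87 and 2.76. The groups did not overlap within a line, and the log2 changes were -0.47 ± 0.11, -1.21 ± 0.12 and -1.16 ± 0.2 (edgeR adjusted p = 0.00017, 7e-15 and 6.9e-06). An annotated gene on the same strand covers 80.59% of its exon length, and fragments in shared exons are assigned to neither gene under the counting options in the IMR90 header, so its level is understated. EBP, the sterol isomerase, stood at 6.34, 7.55 and 6.46 CPM in IMR90 controls, 4.71, 5.20 and 4.99 in libraries labelled set 1 and 6.06, 6.12 and 7.79 in set 2. Huh7 levels of EBP were 71.3, 69.3 and 73.4 CPM in controls and 24.6, 27.1 and 24.8 in shTHBD libraries, far apart. The log2 change was -1.51 ± 0.08 in Huh7 (edgeR adjusted p = 5.6e-17), -0.39 ± 0.14 in libraries labelled set 1 (edgeR adjusted p = 0.019) and -0.11 ± 0.14 in set 2 (edgeR adjusted p = 0.5, not called). Its call in libraries labelled set 1 was lost without control replicate 2 (-0.31), without replicate 1 of those libraries (-0.35) and with DESeq2 (-0.38). EBP also shares 36.43% of its exon length with a gene on the same strand. TM7SF2, a sterol reductase, stood at 4.98, 4.98 and 5.76 CPM in IMR90 controls, 2.19, 2.90 and 2.25 in libraries labelled set 1 and 5.42, 5.54 and 5.34 in set 2. For TM7SF2 in Huh7, controls stood at 43.7, 40.1 and 50.8 CPM and shTHBD libraries at 31.2, 31.7 and 37.5. The log2 change in libraries labelled set 1 was -1.04 ± 0.18 (edgeR adjusted p = 8.9e-07), while set 2 overlapped with the controls (-0.034 ± 0.16, edgeR adjusted p = 0.86) and Huh7 fell by 0.45 (edgeR adjusted p = 0.00018).

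DHCR7, the reductase of the final step, fell by nearly the same amount everywhere: its log2 changes were -0.86 ± 0.039, -0.84 ± 0.039 and -0.94 ± 0.058. SQLE, the squalene epoxidase often described as a control point of the route, was lower by more in Huh7 (-1.09 ± 0.079) than in libraries labelled set 1 (-0.39 ± 0.043) and set 2 (-0.26 ± 0.042), and both differences passed the test (edgeR adjusted p = 1.7e-09 and 3.7e-11). LSS, which closes the sterol rings, was lower in all 3 comparisons (-0.22 ± 0.036, -0.34 ± 0.036 and -0.52 ± 0.067). HSD17B7, a sterol ketone reductase, was also lower in all 3 (-0.41 ± 0.14, -0.50 ± 0.14 and -0.63 ± 0.21) at a level of 2.78 to 10.3 CPM over all libraries. Its call was lost in libraries labelled set 1 without control replicate 2 (-0.27) or without replicate 2 of those libraries (-0.32), and in Huh7 without control replicate 2 (-0.59) or shTHBD replicate 1 (-0.42). NSDHL, a sterol dehydrogenase, was lower in Huh7 (-0.49 ± 0.11) and not called in either IMR90 set (-0.026 ± 0.055 and 0.054 ± 0.054, edgeR adjusted p = 0.71 and 0.38).

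**Figure D4:**
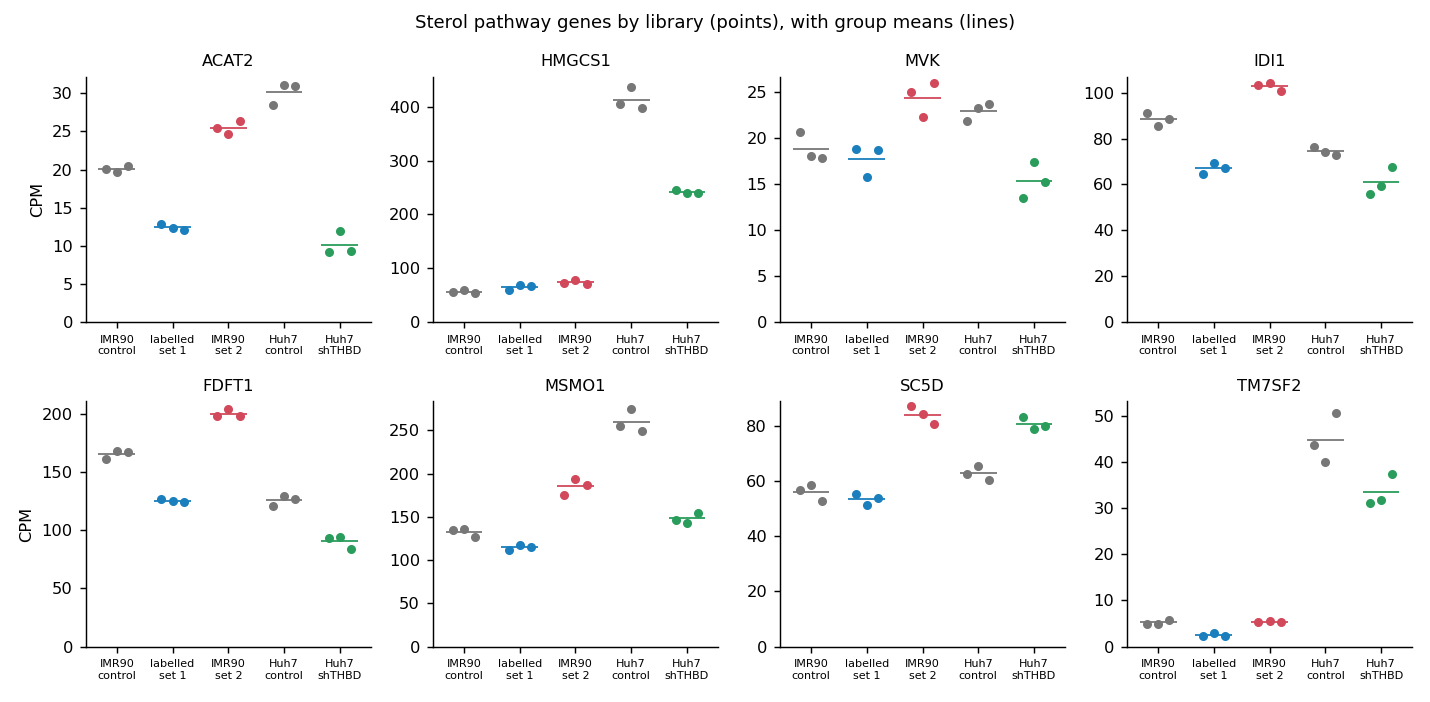
CPM of 8 genes of the mevalonate and sterol steps (vertical axes, from 0) in each of the 15 libraries (points) with group means (lines). For ACAT2, IDI1, FDFT1 and MSMO1 the set 2 points lie above the IMR90 controls and those of libraries labelled set 1 below them; SC5D is the panel in which Huh7 shTHBD lies above its control.

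The regulators did not move as a group: in libraries labelled set 1, 2 of the 6 were lower and 2 higher, in set 2, 5 were lower and 1 higher, and in Huh7, 3 were lower and 1 higher. SREBF1 stood at 169.5, 178 and 175 CPM in IMR90 controls, 106, 102 and 104 in libraries labelled set 1 and 99.1, 89.3 and 91.7 in set 2. Huh7 levels of SREBF1 were 103, 102 and 114 CPM in controls and 64.4, 58.3 and 55.8 in shTHBD libraries. It was lower in every shTHBD library than in any control of its line, with log2 changes of -0.69 ± 0.036, -0.98 ± 0.037 and -0.87 ± 0.07 (edgeR adjusted p = 3.3e-27, 4.2e-36 and 2e-12). RAI1, which overlaps 6.75% of the SREBF1 exon length on the other strand, had log2 changes of -0.22, -0.055 and 0.38. SREBF2 stood at 229.6, 223 and 228 CPM in IMR90 controls, 206, 215 and 214 in libraries labelled set 1 and 214, 204 and 209.8 in set 2. For SREBF2 in Huh7, controls stood at 269, 263 and 271 CPM and shTHBD libraries at 260.1, 256 and 256. These shifts were small: the log2 change was -0.20 ± 0.03 in set 2 (edgeR adjusted p = 1.6e-08), and -0.040 ± 0.03 in libraries labelled set 1 and -0.084 ± 0.055 in Huh7 were not called (edgeR adjusted p = 0.26 and 0.2). With upper-quartile scaling the change in libraries labelled set 1 was called lower (-0.072, edgeR adjusted p = 0.035).

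SCAP, the escort of both SREBPs, stood at 66.2, 55.5 and 64.2 CPM in IMR90 controls, 66.5, 61.2 and 67.5 in libraries labelled set 1 and 20.9, 21.5 and 21.1 in set 2. Huh7 levels of SCAP were 408, 382 and 408 CPM in controls and 139.8, 139 and 152 in shTHBD libraries. Set 2 and Huh7 shTHBD lay at about 1 part in 3 of their controls, while libraries labelled set 1 overlapped with the controls. SCAP was 3.1-fold lower in set 2 (-1.63 ± 0.063 on the log2 scale, edgeR adjusted p = 2.1e-35) and 2.83-fold lower in Huh7 (-1.50 ± 0.06, edgeR adjusted p = 3.9e-20), and the set 2 fall was, with those of FADS2 and FASN, among the 3 largest of the members in that set. The small rise in libraries labelled set 1 (0.12 ± 0.054, edgeR adjusted p = 0.045) was lost with upper-quartile scaling (0.092), with no filter on low counts (0.117) and with DESeq2 (0.137), and without control replicate 2 (0.052) or replicate 1 (0.111) or 3 (0.095) of those libraries. The difference between the sets was 1.76 ± 0.063 (labelled set 1 minus set 2, edgeR adjusted p = 1.7e-37), the largest among the members.

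INSIG1, itself a well known SREBP target, was the member that rose throughout. It stood at 113, 114 and 103 CPM in IMR90 controls, 164, 167 and 161 in libraries labelled set 1 and 155, 154 and 152 in set 2. For INSIG1 in Huh7, controls stood at 15.8, 17.2 and 15.3 CPM and shTHBD libraries at 25.9, 28.1 and 22.8. No library overlapped with the controls of its line, and the log2 changes were 0.63 ± 0.035, 0.40 ± 0.036 and 0.64 ± 0.11 (edgeR adjusted p = 1.1e-25, 3.5e-16 and 6.3e-06). INSIG2 stood at 26.1, 26.6 and 25.8 CPM in IMR90 controls, 19.0, 23.9 and 23.9 in libraries labelled set 1 and 17.2, 17.2 and 14.7 in set 2. Huh7 levels of INSIG2 were 29.4, 28.0 and 31.7 CPM in controls and 29.8, 24.5 and 28.2 in shTHBD libraries, which overlapped. It was lower in set 2 (-0.76 ± 0.085, edgeR adjusted p = 2.2e-12) and not called in Huh7 (-0.14 ± 0.098, edgeR adjusted p = 0.25) or in libraries labelled set 1 (-0.17 ± 0.081, edgeR adjusted p = 0.066). That last change was called without replicate 2 (-0.22) or 3 (-0.23) of those libraries, with upper-quartile scaling (-0.20) and in a fit of the 2 groups alone (-0.17). STARD4, a soluble carrier that moves cholesterol between membranes, stood at 109, 114 and 107 CPM in IMR90 controls, 74.9, 78.3 and 73.2 in libraries labelled set 1 and 84.2, 86.5 and 83.7 in set 2. For STARD4 in Huh7, controls stood at 19.3, 22.6 and 18.7 CPM and shTHBD libraries at 13.7, 13.1 and 13.8. Its falls were of like size, at -0.49 ± 0.041, -0.46 ± 0.041 and -0.61 ± 0.12 (edgeR adjusted p = 5.3e-17, 2.1e-16 and 4.1e-05), and the groups did not overlap.

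**Figure D5:**
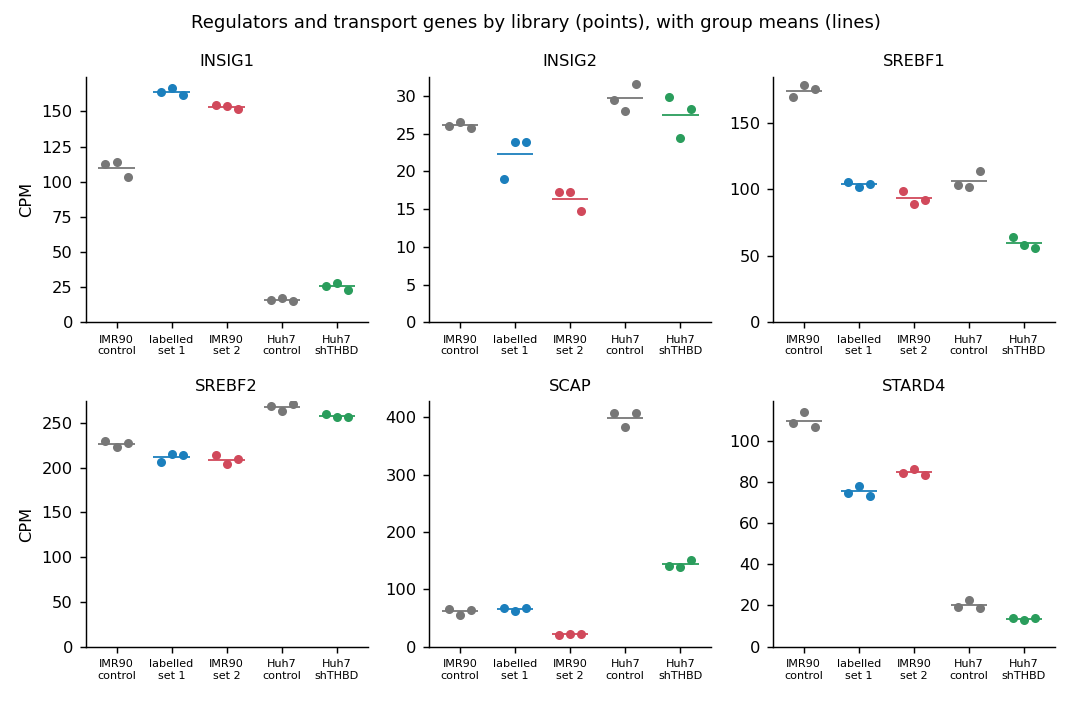
CPM of the 6 regulators and transport genes (vertical axes, from 0) in each of the 15 libraries (points) with group means (lines). SCAP lies at 20.9 to 21.5 CPM in set 2 against 55.5 to 66.2 in controls, INSIG1 lies above the controls in all shTHBD groups, and SREBF2 stays within a narrow range in each line.

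Tested directly against each other, the 2 IMR90 sets differed in 24 of the 31 members: 13 were higher and 11 lower in libraries labelled set 1 than in set 2, against 33.9% higher and 35.6% lower of all genes (69.5% in either direction). Upper-quartile scaling moved the median of all genes in that comparison to -0.13, and it made the member split 9 higher and 16 lower, so that 36% in place of 54.2% of the called members were higher. Directions were counted by role, with no test of role against direction. Of the 7 mevalonate and isoprenoid genes, 6 were called, all lower in libraries labelled set 1 (median -0.48), and 6 of 7 fatty acid genes and 5 of 6 regulators were higher there (medians 0.37 and 0.26), while the 11 squalene and sterol genes held 2 higher and 5 lower. With upper-quartile scaling the counts were 7 lower of 7 mevalonate and isoprenoid genes, 4 higher of 7 fatty acid genes, 4 higher and 1 lower of 6 regulators, and 1 higher and 8 lower of 11 squalene and sterol genes. The log2 differences with upper-quartile scaling were -0.999 for ACAT2, -0.652 for MSMO1, 0.529 for FASN and 1.659 for SCAP. Relative to the shifted median they were -0.87, -0.52, 0.66 and 1.79. Subtracting that median takes the shift of the scaling out again, so the relative values are no check of the scaling. The summed mevalonate and isoprenoid level was 412.9 to 420.3 CPM in the controls, 279.8 to 298 in libraries labelled set 1 and 434 to 451 in set 2, and the fatty acid sum was 2376 to 2409, 1506 to 1548 and 1003 to 1022 CPM.

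Between the lines, the change in libraries labelled set 1 differed from the Huh7 change in 18 of 31 members, with 14 differences above 0 and 4 below. Of all 16682 genes, 47.5% differed, 23.9% above and 23.6% below. The set 2 change differed from the Huh7 change in 18 members as well, 12 above 0 and 6 below, against 44% of all genes, 21.2% above and 22.8% below. These comparisons use the same Huh7 libraries and IMR90 controls. For set 2 the mevalonate and sterol genes accounted for the higher side: 6 of 7 and 5 of 11 were higher in IMR90 and none lower, with ACAT2 (1.83 ± 0.13), EBP (1.37 ± 0.15), MSMO1 (1.21 ± 0.07) and HMGCS1 (1.08 ± 0.075) the largest. Of the fatty acid genes, 1 was higher and 3 lower in set 2 than in Huh7. Among the 6 differences below 0, SREBF2 lost its call in 11 alternatives (-0.146 to -0.101). INSIG1 lost its call without Huh7 shTHBD replicate 2 (-0.21). For libraries labelled set 1 against Huh7, CYP51A1 lost its call without Huh7 control replicate 3 (0.527) or shTHBD replicate 3 (0.473). SREBF1, SCAP, ACLY, SCD and FADS2 did not differ past the threshold between set 2 and Huh7, with log2 differences of -0.15 ± 0.074, -0.16 ± 0.087, -0.12 ± 0.053, 0.11 ± 0.05 and 0.054 ± 0.08 (± SE), which bounds these differences without showing that the changes are equal. The SCAP difference was called without IMR90 control replicate 2 (-0.23), and the ACLY difference without Huh7 shTHBD replicate 3 (-0.15). The SREBF1 difference was called without Huh7 control replicate 3 (-0.19) or shTHBD replicate 3 (-0.18). The SCD difference was called with upper-quartile scaling (0.148), with the DESeq2 test (0.12) and without Huh7 control replicate 3 (0.12).

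Per length of transcript, as TPM (counts scaled by exon length and to a common total), the order of levels differed between the lines' controls. In IMR90 controls ACLY was highest at 515 ± 7.7 TPM (mean ± SD, n = 3), then SCD at 323 ± 5.1 and FASN at 275 ± 1.4, and these neighbours were separated by more than their spread. MSMO1 at 166 ± 5.9 and FDPS at 160 ± 1.7 TPM followed within their spread of each other, and TM7SF2 was lowest at 5.49 ± 0.49. In Huh7 controls SCD was highest at 614 ± 7.2 TPM, then MSMO1 at 316 ± 17.0. DHCR7 at 238 ± 9.8 and ACLY at 234 ± 1.5 TPM lay within their spread of each other. DHCR7 has a deposited exon length of 4160 bases for Huh7 and 6852 for IMR90, and with the latter, a setting chosen after seeing the data, its Huh7 level was 144 ± 5.95 TPM, below ACLY, SCAP, HMGCS1 and FASN. HSD17B7 was lowest at 4.44 ± 0.42. SCAP stood at 221 ± 7.9 TPM in Huh7 controls and 35.2 ± 3.2 in IMR90 controls, and INSIG1 at 15.3 ± 0.93 and 108 ± 5.6, which sets the 2 lines apart in opposite directions; these levels were counted in separate tables and were not tested.

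Genes of neighbouring pathways were listed by role, chosen with earlier results of these data known, and are given as counts. Of all tested genes, 27.3% were higher and 26.5% lower in libraries labelled set 1. These shares were 33.2% and 34.1% in set 2, and 25.9% and 27.3% in Huh7. Counts near these shares say little about a list. Of 12 genes of SREBP processing and sterol sensing, 5 were higher and 4 lower in libraries labelled set 1, 5 and 6 in set 2, and 4 and 3 in Huh7. NFYA, a subunit of the NF-Y factor, was lower in set 2 (log2 -0.75 ± 0.059), NFYC, another subunit, was higher in libraries labelled set 1 and set 2 (0.59 ± 0.078 and 0.53 ± 0.077), and MBTPS1, the first of the proteases that cut SREBPs, was higher in Huh7 (0.40 ± 0.054). Of 7 LXR factors and targets, genes that respond to a surplus of sterols, 3 were lower and 1 higher in libraries labelled set 1, 5 and 1 in set 2, and in Huh7 5 of the 6 tested were lower and none higher. ABCG1, a sterol exporter, fell in IMR90 from a mean of 12.9 CPM in controls to 4.01 in libraries labelled set 1 and 1.79 in set 2 (log2 -1.62 ± 0.14 and -2.92 ± 0.16). NR1H2, the LXR beta receptor, was lower in set 2 (-1.49 ± 0.05) and slightly higher in libraries labelled set 1 (0.22 ± 0.043), and NR1H3, LXR alpha, was lower in Huh7 (-1.59 ± 0.1). Among 14 genes of sterol uptake, transport and storage, 5 were higher and 3 lower in libraries labelled set 1, 6 and 5 in set 2, and 3 and 8 of 12 tested in Huh7. NPC1, which exports cholesterol from lysosomes, was lower in set 2 (-1.13 ± 0.043), SOAT1, which esterifies it, was higher there (0.85 ± 0.044), and VLDLR, a lipoprotein receptor, was higher in libraries labelled set 1 (0.48 ± 0.064) and in Huh7 (0.81 ± 0.061). Of the isoprenoid branch 13 of 14 genes were tested: 6 were higher and 4 lower in libraries labelled set 1, 4 and 5 in set 2, and 2 and 6 in Huh7. FNTB, the beta subunit of farnesyltransferase, was higher in libraries labelled set 1 (0.48 ± 0.16) and lower in set 2 (-1.41 ± 0.2) and Huh7 (-0.78 ± 0.29).

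The enzymes around fatty acid synthesis did not share the uniform fall of the 7 members. Of 27 genes of precursor supply, elongation, desaturation and activation, 13 were higher and 9 lower among 25 tested in libraries labelled set 1 (median log2 fold change 0.12). In set 2, 7 were higher and 15 lower (median -0.25). In Huh7, 3 were higher and 13 lower among 24 tested (median -0.38). Called in either direction were 88%, 88% and 66.7% of those tested, against 53.8%, 67.3% and 53.1% of all genes. ACSL4, which activates polyunsaturated fatty acids, was lower in libraries labelled set 1 (-0.59 ± 0.028), SCD5, a paralog of SCD, was higher in set 2 (0.80 ± 0.082) and was at 0 in every Huh7 library, and HSD17B12, a reductase of the elongation cycle, was lower in Huh7 (-1.73 ± 0.09).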

How the data were processed

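RNA-seq counts of 15 libraries were used: 9 of IMR90 (3 control, 3 labelled shTHBD set 1, 3 shTHBD set 2) and 6 of Huh7 (3 control, 3 shTHBD), grouped by title and labels. The authors deposited raw fragment counts per gene. Per the submitters' processing notes, reads passed fastp, STAR and featureCounts on GRCh38. Per the file headers, the IMR90 counts came from featureCounts 2.0.1 with GENCODE 38, paired fragments, exons summed by gene name, and no strand or multi-mapping option. The command behind the Huh7 table is not given in the sources used here. Deposited tables also give each gene's exon length, used here for TPM.

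Each line was fitted separately in edgeR 4.0.16 (R 4.3.3) with filterByExpr, TMM scaling and the quasi-likelihood test. All 3 IMR90 groups shared 1 fit, and a joint fit of genes named alike in both tables (38415 before the filter) gave the differences between lines. P-values were adjusted over all tested genes by the Benjamini-Hochberg method with a threshold of 0.05 for a call. The SE is the log2 fold change divided by the square root of F, an approximation. CPM scales each count by its library's total, and TPM also by exon length. Alternatives were the size factors and test of DESeq2 1.42.0, upper-quartile scaling, no filter, fits of only the 2 groups compared, a block on the replicate number and omission of each library in turn. The fit was tested on simulated data. Variation between libraries of a group beyond counting noise (edgeR's common coefficient) was 3.13% for IMR90, 8.2% for Huh7 and 5.48% jointly, and no replicate pair agreed within counting noise (chi-square per degree of freedom 1.93 to 12.4). The members and lists were chosen with earlier results of these data known. Values per library are given for the 6 regulators and for members among the 4 largest called rises or falls of any comparison, and at most 2 called genes per direction are named from each other list. Limits on counts of 0 cover counting error only.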

Additional observations from a re-analysis of the deposited data

Results flagged for a closer look

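The results below stand out because a test of the difference between 2 effects passed the threshold and the effects had called changes in opposite directions. Between the IMR90 sets (log2 difference, labelled set 1 minus set 2), ACAT2 differed by -0.90 ± 0.085 (SE), IDI1 by -0.48 ± 0.042, FDFT1 by -0.54 ± 0.033 and MSMO1 by -0.55 ± 0.036, all of them lower than control in libraries labelled set 1 and higher in set 2. SCAP differed by 1.76 ± 0.063, with a rise in libraries labelled set 1 that several alternatives did not keep. Between libraries labelled set 1 and Huh7, the changes of HMGCS1 differed by 1.06 ± 0.075 and those of SCAP by 1.61 ± 0.08. Between set 2 and Huh7, the changes of ACAT2 differed by 1.83 ± 0.13, HMGCS1 by 1.08 ± 0.075, MVK by 0.87 ± 0.14, IDI1 by 0.42 ± 0.086, FDFT1 by 0.67 ± 0.063 and MSMO1 by 1.21 ± 0.07. All these genes belong to the mevalonate and sterol steps except SCAP. THBD was above control in libraries labelled set 1, and the part of that mismatch in these differences was not tested.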

How the results depend on the processing

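The counts of called genes, over all genes and over the members, stayed within 1.5 times the reported value in all 380 recomputed values. Leaving out a library gave 21 to 24 lower members in libraries labelled set 1, 20 in set 2 and 26 to 27 in Huh7. Of the 186 member results (31 genes in 6 comparisons), 143 were unaltered in call and direction under every alternative run, 11 lost their call in at least 1, 18 gained one and 17 changed sign in at least 1; none of those 17 was called in the main test. Depth was 18256773 fragments or more, and counts of HSD17B7, TM7SF2, CYP51A1 and EBP in IMR90 were the lowest of the set.

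Sign changes were as follows, in log2, and the cause was not tested. SC5D in libraries labelled set 1 was 0.005 with DESeq2 size factors, 0.004 with the DESeq2 test, and -0.055 to 0.026 when a library was left out. TM7SF2 in set 2 was 0.034 with upper-quartile scaling and -0.079 to 0.034 with a library left out. Between the sets, FADS2 was 0.007 with DESeq2 size factors, 0.016 without the filter, 0.008 with the DESeq2 test and -0.043 to 0.051 with a library left out, HSD17B7 was -0.009 with upper-quartile scaling and 0 to 0.186 with a library left out, DHCR7 -0.039 to 0.019 and HMGCS1 -0.064 to 0.04. Between libraries labelled set 1 and Huh7, upper-quartile scaling gave -0.002 for FADS2 and -0.036 for SREBF2, and ACACA was 0.003 without the filter. Leaving out a library there gave -0.039 to 0.021 for ACACA, -0.004 to 0.422 for HSD17B7, -0.11 to 0.056 for IDI1, -0.084 to 0.036 for INSIG1 and -0.143 to 0.051 for INSIG2. It gave -0.074 to 0.05 for MVK in libraries labelled set 1, -0.003 to 0.085 for NSDHL in set 2, and, between set 2 and Huh7, -0.278 to 0.062 for CYP51A1 and -0.105 to 0.322 for HSD17B7.

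The replicate block left every member call as reported (23 lower in libraries labelled set 1, 20 in set 2, 27 in Huh7) and gave 4234 higher and 4550 lower genes in Huh7 against 4518 and 4762. Libraries of the same number did not pair: their deviations correlated at -0.0259 to 0.0225 in IMR90 and -0.0524 to -0.0158 in Huh7, against -0.026 to 0.0362 and -0.0256 to 0.0452 for other numbers.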

Other observations

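Glycerolipid synthesis uses the products of the fatty acid genes. Of its 15 listed genes, 7 were higher and 4 lower in libraries labelled set 1, 3 and 8 in set 2, and 3 and 9 in Huh7, against 53.8%, 67.3% and 53.1% of all genes called in either direction. Tested against set 2, 9 were higher and 5 lower in libraries labelled set 1, against 69.5% of all genes called. GPAT3, an acyltransferase of the first step, rose in libraries labelled set 1 from a mean of 15.8 CPM in controls to 102.9 CPM (log2 2.76 ± 0.06), and DGAT2, which makes triacylglycerol, from 17.5 to 71.0 CPM (log2 2.08 ± 0.067). In set 2 the means were 12.02 and 11.5 CPM, and the log2 differences between libraries labelled set 1 and set 2 were 3.23 ± 0.063 and 2.77 ± 0.072. In Huh7, GPAT3 was lower (log2 -1.66 ± 0.12) and so was DGAT1, another enzyme of triacylglycerol synthesis (-1.49 ± 0.087).

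Of 19 genes of fatty acid oxidation, 18 were tested in each line. In libraries labelled set 1, 2 were higher and 11 lower, in set 2, 5 and 7, and in Huh7, 3 and 11. Called in either direction were 72.2%, 66.7% and 77.8% of those tested, against 53.8%, 67.3% and 53.1% of all genes. The set 2 count thus lay near the share of all genes. ACADS, the short-chain acyl-CoA dehydrogenase, was lower in each comparison with a control (log2 -1.19 ± 0.24, -1.74 ± 0.25 and -1.47 ± 0.12), with a mean of 1.28 to 4.02 CPM over the IMR90 groups and of 28.8 and 10.6 CPM in Huh7 controls and shTHBD libraries. These lists were chosen with earlier results of these data known, and their direction was not tested as a set.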
